A study of Brassica napus with 36 samples.

Results

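The xyloglucan endotransglucosylase/hydrolases (XTHs) and the expansins accounted for 226 of the 106340 gene loci in the expression table of Brassica napus leaves. A locus was a member when its deposited Swiss-Prot BLAST text named a xyloglucan endotransglucosylase or an expansin by class ("Expansin-"), so no expression value took part in the choice. The set held 99 XTH loci under 30 gene symbols, 92 alpha-expansin (EXPA), 25 beta-expansin (EXPB), 5 expansin-like A (EXLA) and 5 expansin-like B (EXLB) loci. There were 60 symbols in all, with 109 loci on the A and 117 on the C subgenome of this allotetraploid. A symbol such as XTH22 is the protein that a locus matched in Swiss-Prot, for most of them a protein of Arabidopsis, so several loci carry the same symbol and the match is no proof of the same function.

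The primary wall of a growing plant cell is a network of cellulose held together by xyloglucan and embedded in pectin. XTHs cut a xyloglucan chain and join the new end to another chain, or to water, whereas expansins loosen the contacts between cellulose and its matrix in an acid wall without cutting any chain. Both families are known for leaf and stem growth, and several XTH genes of Arabidopsis respond quickly to touch, temperature and hormones.

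Leaves of 2 early-maturing varieties, HX17 and HX58, were compared in 6 groups each, with 3 libraries per group and 36 in all. FA and CA plants were grown for 4 weeks at 20/16° (day/night), acclimated for 14 days at 4° and then held for 12 h at -4° (FA, freezing) or 4° (CA, chilling), against the control group MA. FB and CB plants were grown for 6 weeks at 20/16° and moved straight to -4° (FB) or 4° (CB) for 12 h, against the control group MB. MA and MB are both given only as controls, grown for 6 weeks at 20/16° in the treatment scheme, and the sources used here do not say how they differ from each other. Every sample was the third leaf from the top. The descriptions of the replicates were not uniform, so p-values measure the spread between these samples, which may be technical.

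The libraries held 32214015 to 59290772 counts, and members took 0.0566% to 0.540% of them. Transcripts of the leaf genes for the small subunit of Rubisco and for chlorophyll-binding proteins were abundant in every library, with summed levels of at least 28825 and 48764 FPKM, the deposited level per unit of transcript length and library size. HX17 MA replicate 2 stood apart from its group, with 5723 FPKM summed over the members, against 1780 and 2023 in replicates 1 and 3. HX58 MA replicate 2 had 2472 FPKM, against 5020 and 6633 in its group, HX17 CA replicate 3 had 4520 FPKM, against 2477 and 2668, and HX17 CB replicate 1 had 2540 FPKM, against 585 and 1076. Counts that rest on these libraries are given with and without them below. In whole leaves, fewer cells of a type and less RNA per cell cannot be told apart.

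Expression was concentrated in few members. No count was seen in any library for 56 loci (16 XTH, 25 EXPA, 13 EXPB and 2 EXLB), which is not detectable at this depth, since a count of 0 allows up to 3 counts. A further 80 loci averaged below 1 FPKM, and 90 averaged at least 1 FPKM, 41 of them at least 10 FPKM (24 XTH, 15 EXPA and 2 EXLA). The highest locus of each class was EXPA1 BnaC06g30760D at 233 FPKM over the 36 libraries, XTH6 BnaCnng13310D at 158 FPKM, EXLA2 BnaCnng78620D at 28.4 FPKM, EXPB3 BnaC01g20780D at 5.08 FPKM and EXLB1 BnaC07g34020D at 1.36 FPKM. Of the EXPB and EXLB loci, 2 each averaged at least 1 FPKM.

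After acclimation the classes differed in direction in FA against MA. The summed level of the EXPA loci was 456, 566 and 596 FPKM (lowest, median and highest library) in HX17 FA and 1196, 1368 and 3487 FPKM in HX17 MA. In HX58 it was 468, 538 and 541 FPKM in FA and 2097, 3877 and 5472 FPKM in MA, so the FA libraries lay below all MA libraries in both varieties. The EXPA sum was likewise 309, 448 and 564 FPKM in HX17 FB and 984, 1356 and 1652 FPKM in HX17 MB, and 434, 630 and 637 FPKM in HX58 FB against 929, 996 and 1098 FPKM in HX58 MB. The EXLA sum was higher in FA, with 137 to 196 FPKM in HX17 FA against 18.8 to 45.8 FPKM in MA, and 96.7 to 117 FPKM in HX58 FA against 14.4 to 27.3 FPKM in MA. Of the tested EXLA loci 2 of 5 in HX17 and 2 of 4 in HX58 were called higher, and 2 in each variety were fitted below 0. The XTH sum overlapped between HX17 FA (1447 to 2080 FPKM) and MA (554 to 2169 FPKM) only through MA replicate 2, whereas HX58 FA (1423 to 1466 FPKM) lay above MA (354 to 1099 FPKM). The same sum was highest in HX58 CA, at 2429 to 2794 FPKM.

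Without acclimation both sums overlapped the control in HX17 and lay above it in HX58. The EXLA sum overlapped between HX17 FB (26.8 to 31.4 FPKM) and MB (20.4 to 29.7 FPKM), where 3 of 4 tested EXLA loci were fitted below 0 (median log2 fold change -0.95), whereas it was 41.5 to 70.7 FPKM in HX58 FB against 9.61 to 20.9 FPKM in MB. The XTH sum likewise overlapped between HX17 FB (916 to 1918 FPKM) and MB (1060 to 1109 FPKM), and HX58 FB (710 to 1098 FPKM) lay above MB (548 to 601 FPKM). Over the tested XTHs the median log2 fold change was -1.70 in HX17 FB and 0.03 in HX58 FB, against -0.04 and 0.01 over all tested genes.

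Leaf markers moved with the same treatments. The summed level of the Rubisco small subunit genes was 28825 to 34047 FPKM in HX58 FA against 55663 to 61829 FPKM in MA, and 69738 to 78620 FPKM in HX17 FA against 81824 to 117232 FPKM in MA. It was also below the control in HX17 FB (58080 to 72570 FPKM) and CB (41765 to 58144 FPKM), against 76278 to 104350 FPKM in MB, and in HX58 FB (40128 to 44330 FPKM), while HX58 CB (32412 to 61249 FPKM) overlapped MB (60638 to 90535 FPKM). The chlorophyll-binding protein genes summed to 48814 to 98120 FPKM in HX17 FB and 55139 to 73835 FPKM in HX17 CB against 103190 to 110734 FPKM in MB, and to 51235 to 82932 FPKM in HX58 FB and 48764 to 54752 FPKM in HX58 CB against 83501 to 124349 FPKM in MB. In FA they were not lower, with 143619 to 188274 FPKM in HX17 FA against 139306 to 162158 FPKM in MA, and 169144 to 176386 FPKM in HX58 FA against 144541 to 162897 FPKM in MA. The part of these shifts in the members' values was not tested.

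**Figure D1:**
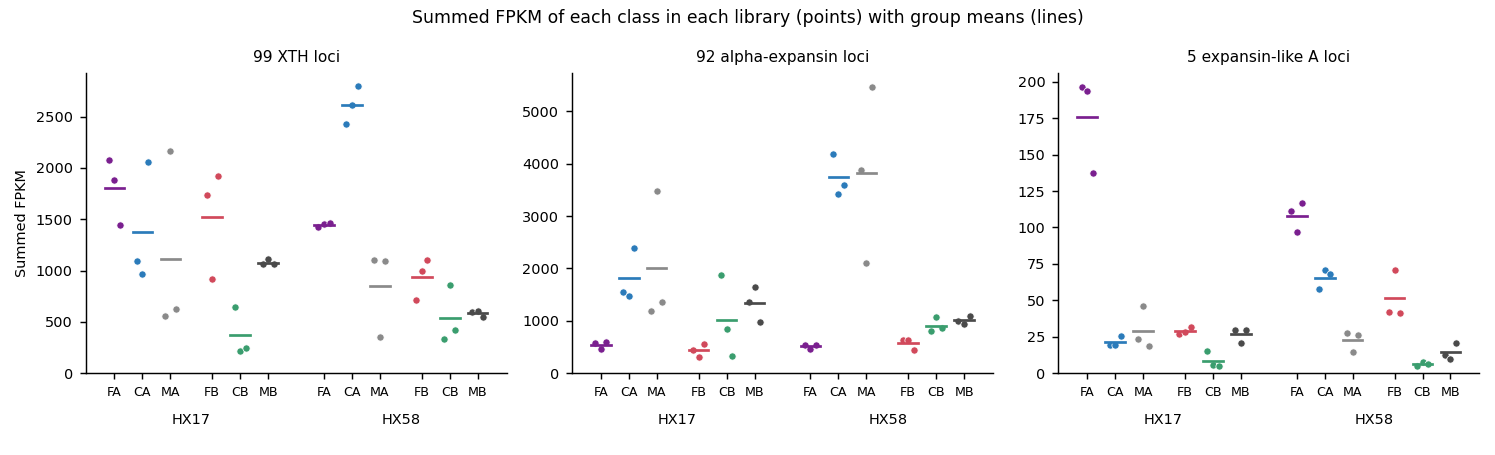
Summed FPKM of the 99 XTH, 92 EXPA and 5 EXLA loci in each library, by variety and group; each point is a library and each line the mean of 3. The EXPA sums of the FA and FB libraries lie below those of their controls MA and MB, while the EXLA sums of FA lie above MA.

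Members were compared with edgeR's quasi-likelihood test with Benjamini-Hochberg adjustment over all genes tested, and a call needed a fold change of at least 2 and an adjusted p under 0.005. In FA against MA, 28 of 103 tested members were called in HX17 (17 higher and 11 lower, where 5.26% of all tested genes were called higher and 2.63% lower) and 41 of 118 in HX58 (23 higher and 18 lower, against 9.42% and 7.26% of all tested genes). Without HX17 MA replicate 2 the HX17 count was 35 (25 higher and 10 lower), and without HX58 MA replicate 2 the HX58 count was 45 (20 higher and 25 lower). Without HX58 FA replicate 2 or 3 the HX58 count was 26 or 27. In both varieties 26 members were called, 15 higher and 11 lower, which is 92.9% of the HX17 calls and 63.4% of the HX58 calls, and none was called in opposite directions. Over all genes the calls in both were 71.7% of the HX17 and 31.9% of the HX58 calls. With any library left out, 19 of the 28 and 24 of the 41 calls stood. The direction differed between the classes: of the XTHs 14 were higher and 3 lower in HX17 and 18 higher and 5 lower in HX58, whereas of the alpha-expansins 1 was higher and 8 lower in HX17 and 3 higher and 13 lower in HX58.

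In FB against MB, 47 of 105 tested members were called in HX17 (18 higher and 29 lower, where 12.8% of all tested genes were called higher and 13.3% lower) and 46 of 112 in HX58 (26 higher and 20 lower, against 16.1% and 13.6% of all tested genes). The calls in both varieties numbered 29, 15 higher and 14 lower, which is 61.7% of the HX17 and 63.0% of the HX58 calls (60.7% and 50.7% over all genes). XTHs were called in both directions here, 12 higher and 17 lower in HX17 and 16 higher and 13 lower in HX58. Alpha-expansins had 5 higher and 11 lower in HX17, and 8 higher and 7 lower in HX58. The counts were 28, 31 and 30 in HX17 without MB replicate 1, 2 or 3, and 28 and 30 in HX58 without MB replicate 1 or FB replicate 2. With any library left out, 27 of the 47 and 26 of the 46 calls stood.

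**Figure D2:**
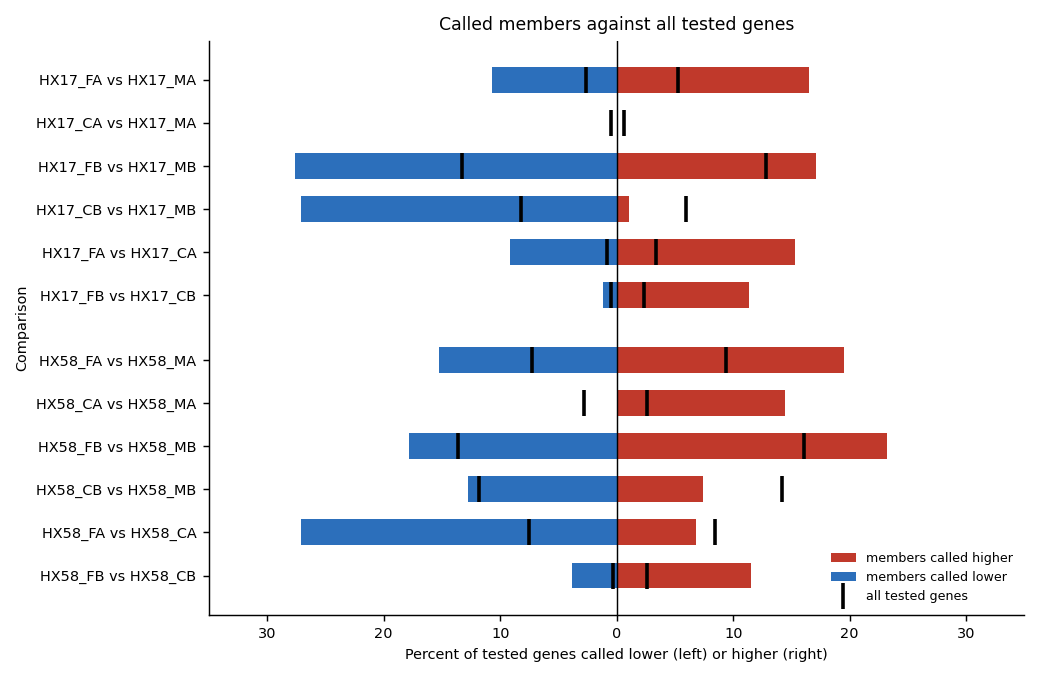
Percent of the tested members called higher (right) or lower (left) in each comparison, with a black tick at the percent of all tested genes called in that direction. The shares called higher in FA against MA and FB against MB, and lower in HX58 FA against CA, extend past their ticks. The share called higher in HX58 FA against CA stops short of its tick, and there is no bar for CA against MA in HX17.

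Freezing was also set against chilling for the same time. In FA against CA, 24 of 98 tested members were called in HX17 (15 higher and 9 lower, where 3.35% of all tested genes were called higher and 0.867% lower) and 40 of 118 in HX58 (8 higher and 32 lower, against 8.40% and 7.56% of all tested genes). The share called higher in HX58 thus lay below that over all genes. Of the XTHs 13 were higher and 2 lower in HX17, but 7 higher and 14 lower in HX58. Of the alpha-expansins 0 were higher in either variety, and 7 were lower in HX17 and 17 in HX58. The HX17 count was 28 without CA replicate 3. In FB against CB, 11 of 88 were called in HX17 (10 higher and 1 lower, against 2.38% and 0.467% of all tested genes) and 16 of 104 in HX58 (12 higher and 4 lower, against 2.57% and 0.352%), and the HX58 count was 9 without CB replicate 3 and 10 without FB replicate 2. Without HX17 CB replicate 1 the HX17 count was 10. Over these 4 comparisons 49 of 123 tested members (39.8%, against 16.3% of all tested genes) were called at least once, 17 of them only higher (13.8%, against 9.02%), 32 only lower (26.0%, against 7.12%) and 0 in both directions. The members called higher in all 4 numbered 7 (5.69%, against 0.893% of all tested genes), namely 5 loci of XTH22, XTH18 BnaC07g42520D and EXLA2 BnaCnng78620D, and no member was lower in all 4 (0.0372% of all tested genes were).

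By number of loci called higher on freezing, XTH22 came first, whose Arabidopsis counterpart is TCH4, a gene known to respond to touch and to heat and cold. Of its 7 loci, 5 were tested and all 5 were called higher in FA and in FB in both varieties, against MA or MB and against CA or CB. At BnaA10g11500D (A10, 9656939 to 9657664, minus strand) the 3 HX17 FA libraries had 176, 120 and 146 FPKM, the CA libraries 1.43, 0.63 and 3.83 FPKM and the MA libraries 1.23, 2.31 and 2.00 FPKM. Every FA library was thus far above every CA and MA library, and CA and MA overlapped. The log2 fold change of FA over MA was 6.44 (SE 0.35, adjusted p = 4.05e-06).

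In HX58 the same locus had 221, 309 and 283 FPKM in FA, 13.1, 6.58 and 23.3 FPKM in CA and 1.41, 0.30 and 0.82 FPKM in MA. Here the 3 groups were separate, with CA between FA and MA. The log2 fold change was 8.30 (SE 0.48, adjusted p = 4.16e-06) for FA over MA and 4.12 (SE 0.62, adjusted p = 0.00185) for CA over MA. The CA call ended without CA replicate 1 or 3 or MA replicate 3 (adjusted p of 0.00993, 0.00995 and 0.00891).

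Without acclimation the locus had 298, 125 and 470 FPKM in HX17 FB, 0.59, 0.04 and 0 FPKM in CB and 26.1, 16.5 and 34.5 FPKM in MB. The order FB, MB, CB held without overlap, so the transcript was higher in frozen and lower in chilled leaves than in their control (log2 fold changes 3.60, SE 0.46, adjusted p = 0.000298, and -6.98, SE 0.80, adjusted p = 0.00046). In HX58 the FB libraries had 150, 238 and 266 FPKM, the CB libraries 0.04, 0.07 and 0 FPKM and the MB libraries 0.15, 0.04 and 0.30 FPKM. HX58 FB was higher than MB by 10.38 on the log2 scale (SE 0.57, adjusted p = 1.25e-05), while CB, with 3 counts in all, was too low to be tested against MB. Against CB the ratio was 5973, with a 95% counting interval of 2044 to 28963 that leaves out the spread between libraries.

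The other 4 tested XTH22 loci were called higher in the same freezing comparisons, and differed in chilled leaves. BnaA02g35250D had 1.17, 2.64 and 1.26 FPKM in HX58 CB against 0.35, 0.03 and 0.04 FPKM in MB, which did not overlap but was not called (log2 fold change 3.65, adjusted p = 0.00818). BnaC09g32750D had 1.29, 0 and 4.43 FPKM in HX58 CA against 0.05, 0 and 0.08 FPKM in MA, so these groups overlapped. Summed over the 7 loci, XTH22 had 332 to 430 FPKM in HX17 FA, 3.46 to 7.36 FPKM in CA and 3.47 to 4.76 FPKM in MA, and 374 to 568 FPKM in HX58 FA, 19.8 to 42.1 FPKM in CA and 0.94 to 2.27 FPKM in MA. In HX17 the sum was 569 to 1185 FPKM in FB, 2.80 to 5.37 FPKM in CB and 40.0 to 95.9 FPKM in MB, and in HX58 286 to 621 FPKM in FB, 1.28 to 2.82 FPKM in CB and 0.20 to 0.90 FPKM in MB. HX17 MB was thus the control group in which XTH22 was already present. Of the 5 tested loci 4 were called lower in HX17 CB than in MB. Some calls rested on single libraries: that of BnaC09g32750D in HX17 FB against MB ended with any library but FB replicate 2 left out (adjusted p of 0.00517 to 0.0159), and those of BnaA02g35330D and BnaC09g32750D in HX58 FA against CA ended without CA replicate 1 or FA replicate 2 or 3 (0.00552 to 0.00923).

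**Figure D3:**
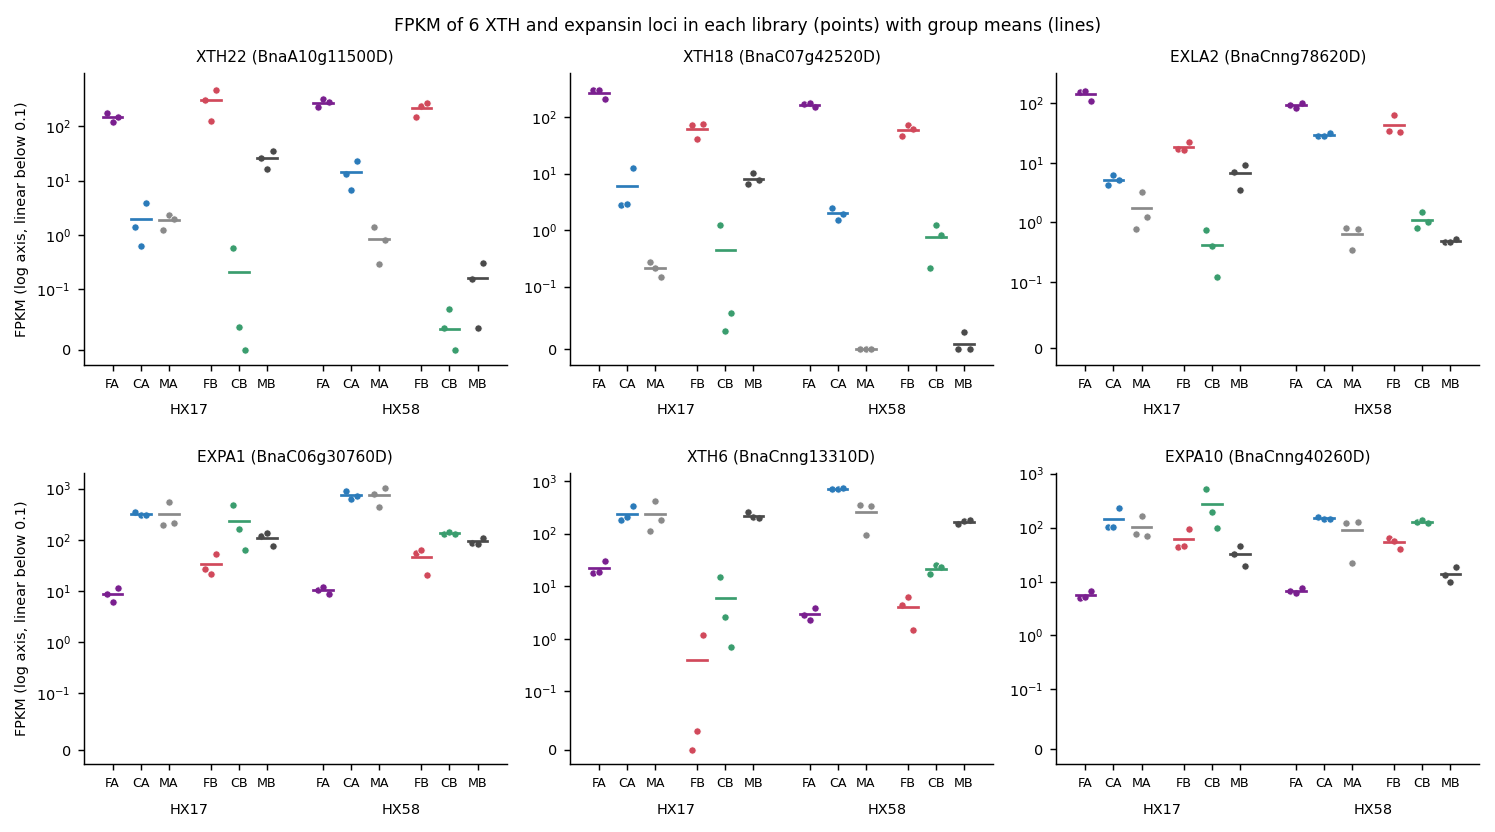
FPKM of 6 loci in each library (axis logarithmic above 0.1 and linear below), by variety, with the groups in the order FA, CA, MA, FB, CB, MB; points are libraries and lines means of 3. XTH22, XTH18 and EXLA2 are highest in FA or FB, EXPA1 and XTH6 are lowest there, and EXPA10 is low in FA but not in FB.

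XTH17 and XTH18, close relatives that are known from roots in Arabidopsis, rose with it. At XTH18 BnaC07g42520D (C07, 41933748 to 41934894, minus strand) HX17 FA had 301, 299 and 208 FPKM, CA 2.77, 2.95 and 12.5 FPKM and MA 0.27, 0.21 and 0.15 FPKM. In HX58 the locus had 173, 177 and 151 FPKM in FA, 2.45, 1.53 and 1.94 FPKM in CA and no count in MA. The groups did not overlap in either variety, and FA was higher than MA by 10.40 on the log2 scale in HX17 (SE 0.39, adjusted p = 1.84e-06) and at least 6067-fold higher in HX58, against a floor of 3 counts over the MA group. In FB the locus reached 72.7, 40.9 and 75 FPKM in HX17, against 6.51, 10.3 and 7.59 FPKM in MB (log2 fold change 3.00, SE 0.31), and 46.9, 72.0 and 62.8 FPKM in HX58, against 1 count in the 3 MB libraries (ratio 6176, 95% counting interval 1108 to 243942). Its rise over CB in HX17 (log2 fold change 7.34, adjusted p = 0.0026) was lost without CB replicate 3 or FB replicate 1, 2 or 3 (adjusted p of 0.00621, 0.0126, 0.00754 and 0.0115).

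The copies of XTH18 did not all behave alike. At BnaC01g08120D HX17 FA had 14.1, 11 and 4.28 FPKM and MA 0.05, 0.32 and 0.09 FPKM (log2 fold change 6.17, SE 0.69, adjusted p = 0.000196). The same locus had 0.12, 0 and 0 FPKM in HX17 FB and 0 FPKM in all 3 CB libraries, against 11.2, 12.1 and 19.7 FPKM in MB. It was thus higher than its control in FA and lower in FB (log2 fold change -7.95, SE 0.64, adjusted p = 2.94e-05), and at least 531-fold lower in CB than in MB. XTH18 BnaA01g06740D, at lower levels, had the same signs, being at least 99.4-fold lower in HX17 CB than in MB. With MA in place of MB as the reference, HX17 CB gave 3 called members in place of 27, and the cause of that difference was not tested. The share of all genes called with MA as the reference is not given, so the fall may not be particular to the members.

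At XTH17 BnaC07g42530D HX17 FA had 68.7, 37.3 and 87.2 FPKM and MA 0.11, 0.21 and 0.03 FPKM (log2 fold change 9.24, SE 0.58, adjusted p = 7.3e-06). HX58 FA had 22.0, 9.79 and 26.7 FPKM and MA 0.12, 0.05 and 0.47 FPKM (log2 fold change 6.64, SE 0.63, adjusted p = 5.63e-05). The libraries of FB also lay above all those of MB at this locus, with log2 fold changes of 6.96 (SE 0.48) in HX17 and 7.60 (SE 0.25) in HX58. XTH23, a relative of XTH22, has 2 loci here, and BnaC01g17710D had 8.25, 12.8 and 7.36 FPKM in HX58 FA against no count in MA, which is at least 352-fold higher.

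XTHs that stand next to each other on a chromosome did not always move together. On C07 the XTH18 and XTH17 loci lie 1419 bases apart and both rose in FB, whereas their neighbour XTH24 BnaC07g42500D, a copy of an Arabidopsis gene known from meristems, was lower in HX17 FB than in MB (log2 fold change -4.10, adjusted p = 0.00219, with adjusted p up to 0.00788 when FB replicate 1 or any MB replicate was left out). In HX58 FB no such fall was called, as 0 of the 5 tested XTH24 loci were lower than in MB and 2 were higher. On C02 the responding XTH22 locus BnaC02g11480D lies 1987 bases from XTH22 BnaC02g11470D, on the other strand, which stayed near 0 in every group. The same arrangement stands on the unplaced A02 sequence, where BnaA02g35320D stayed near 0 and lies 2284 bases from BnaA02g35330D, whose level was 19.7, 39.7 and 56.1 FPKM in HX58 FB against 0.03, 0 and 0.07 FPKM in MB. XTH17 and XTH18 are neighbours within 1323 to 1432 bases on A01, A03, C01 and C07. Near-identical copies can share reads, so a level may be split between them, and the counting was not stated to use strand.

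**Figure D4:**
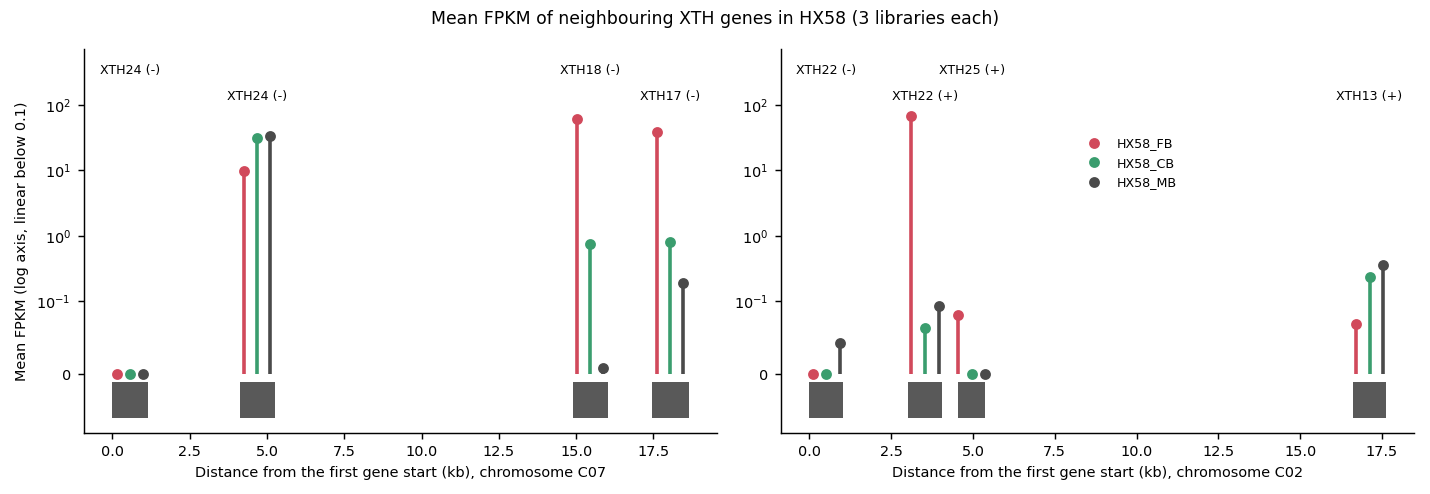
Mean FPKM (axis logarithmic above 0.1) in HX58 FB, CB and MB of neighbouring XTH loci on C07 and C02 against the distance in kb from the start of the first locus; each stem is the mean of 3 libraries, blocks mark the loci and signs their strand. The XTH22 copy that rises in FB lies beside a copy near 0, and XTH17 and XTH18 rise side by side.

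EXLA2, an expansin-like gene whose wall-loosening activity is not established, has 5 loci, and BnaCnng78620D was the expansin-class locus called higher in all freezing comparisons. BnaCnng78620D had 156, 158 and 109 FPKM in HX17 FA, 4.25, 6.31 and 5.16 FPKM in CA and 0.77, 3.21 and 1.23 FPKM in MA. In HX58 it had 94.1, 82.1 and 99.8 FPKM in FA, 28.6, 27.6 and 31.9 FPKM in CA and 0.80, 0.35 and 0.78 FPKM in MA. All 3 groups were separate in both varieties, and FA over MA gave log2 fold changes of 6.48 (SE 0.53, adjusted p = 2.97e-05) and 7.16 (SE 0.31, adjusted p = 1.26e-06). CA was also called higher than MA in HX58 (log2 fold change 5.57, SE 0.34, adjusted p = 3.07e-05), while in HX17 it was not (1.62, adjusted p = 0.0744).

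Straight to freezing, EXLA2 BnaCnng78620D had 17.2, 16.4 and 22.3 FPKM in HX17 FB, 0.75, 0.40 and 0.12 FPKM in CB and 7.04, 3.55 and 9.31 FPKM in MB. The HX58 libraries had 33.6, 63.8 and 32.7 FPKM in FB, 0.80, 1.5 and 1.00 FPKM in CB and 0.47, 0.46 and 0.52 FPKM in MB. FB was called higher than MB in both (log2 fold changes 1.56 and 6.44), but the HX17 call ended without FB replicate 1 or 3 or MB replicate 1 (adjusted p of 0.00577, 0.0093 and 0.0113). HX17 CB was lower than MB (log2 fold change -4.12, adjusted p = 0.00126), a call that ended without MB replicate 1 or 3 (adjusted p of 0.00804 and 0.00758).

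XTH27, known in Arabidopsis from the vessels of small leaf veins, has 5 loci, of which 4 were tested in each comparison. Against the controls 1 was called higher in HX17 FA, 2 in HX58 FA, 3 in HX17 FB and 2 in HX58 FB, where another was lower (log2 fold change -1.97). On chilling 3 were called higher in HX58 CA, 2 in HX58 CB, 1 in HX17 CB and 0 in HX17 CA, where the log2 fold changes ran from -1.45 to 0.69. BnaA06g34490D, chosen after its values were seen as the XTH27 locus higher in FA and FB in both varieties, had 189, 272 and 238 FPKM in HX58 FA, 150, 164 and 181 FPKM in CA and 52.8, 33.7 and 37.6 FPKM in MA. FA and CA were each above every MA library, with log2 fold changes of 2.47 (SE 0.24) and 2.05 (SE 0.23). The FA call in HX17 (log2 fold change 2.28) ended without any FA replicate or MA replicate 1 or 3 (adjusted p up to 0.0185), and the FB call in HX58 (1.88) without MB replicate 1 or 2 (0.00642 and 0.00511). In HX58 FA against CA it differed by 0.38 (SE 0.15, adjusted p = 0.0708) and was not called. Another XTH27 locus, BnaAnng35740D, was higher in CB than in MB by 1.51 in HX17 and 2.37 in HX58 on the log2 scale, the HX17 call being lost without CB replicate 1 or 2 or any MB replicate (adjusted p up to 0.0258).

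**Figure D5:**
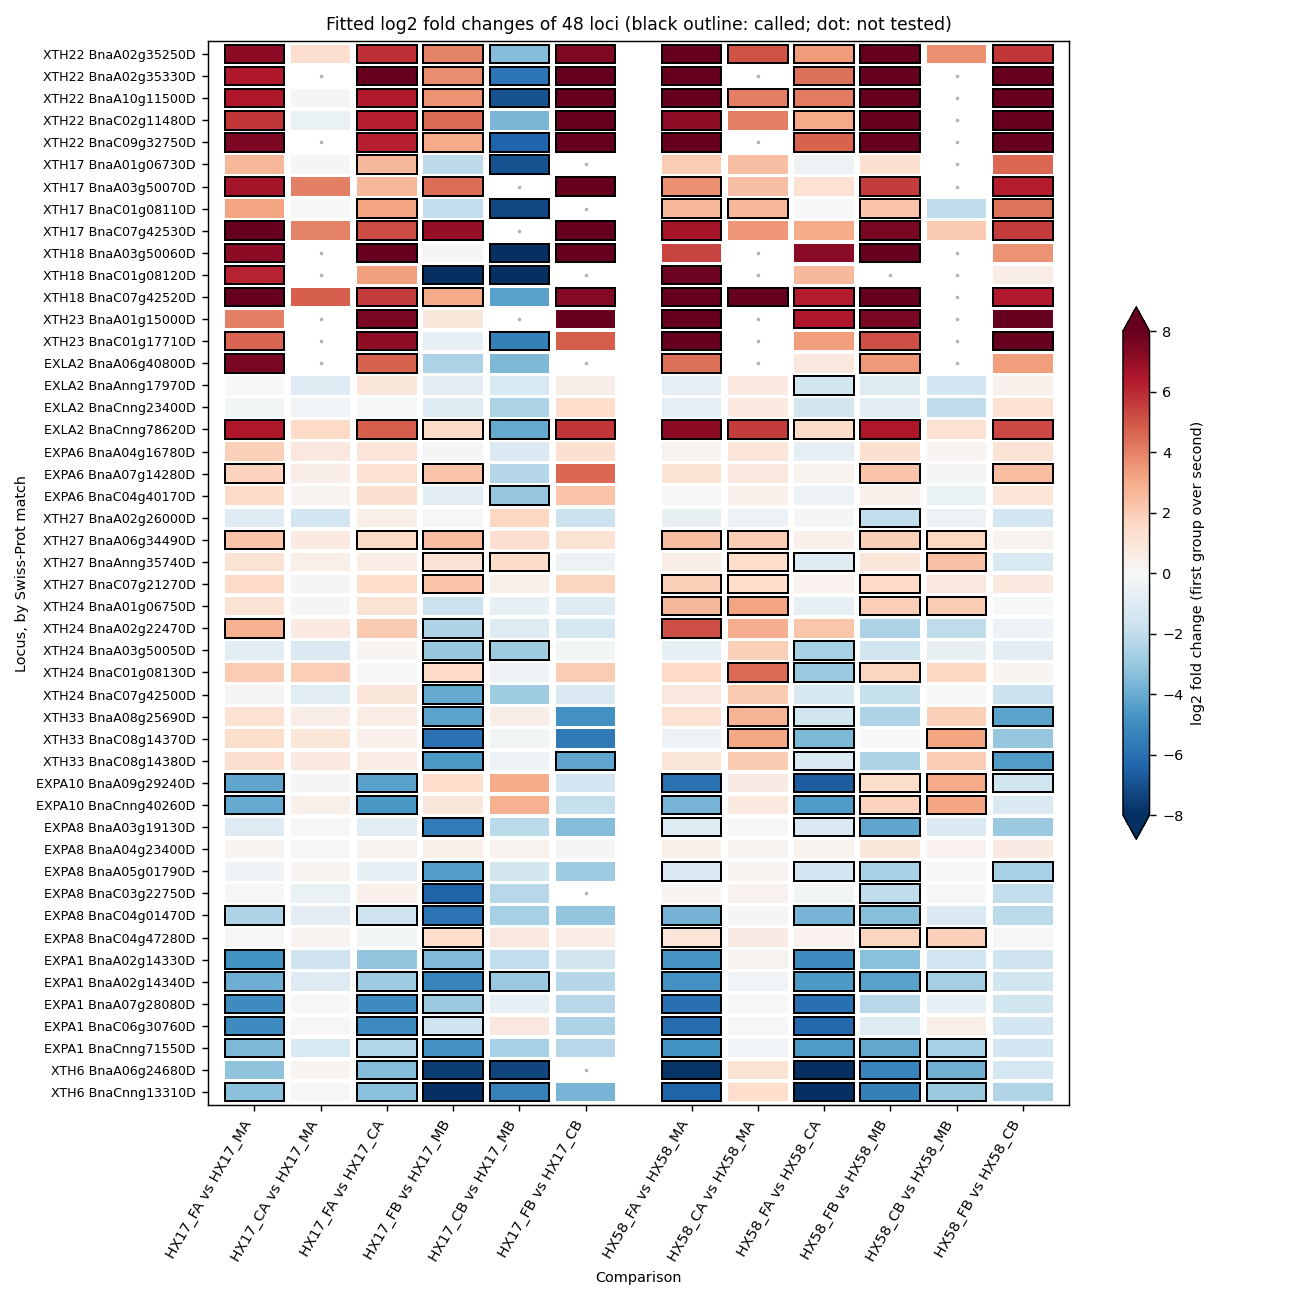
Log2 fold change (colour, higher in red and lower in blue) of 48 loci of 13 symbols in 12 comparisons, with an outline for called values and a dot where a locus was not tested. XTH22 loci are red in FA and FB, EXPA1 and XTH6 loci are blue there, and EXPA10 is blue in FA but red in CB.

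EXPA1, an alpha-expansin that in Arabidopsis is known for the opening of stomata, had the most loci called lower in FA in both varieties and in HX17 FB. In HX58 FB that was EXPA8, with 4 loci against 2 of EXPA1. All 5 EXPA1 loci were called lower in FA than in MA in both varieties, and in HX17 all 5 were lower in FB than in MB. The calls of BnaA02g14330D in HX17 ended in FA without any FA replicate (adjusted p of 0.00622 to 0.0139) and in FB with any library but FB replicate 3 left out (0.0053 to 0.0195). At BnaC06g30760D (C06, 31423723 to 31424644, plus strand) HX17 FA had 8.83, 5.99 and 11.6 FPKM, CA 344, 299 and 305 FPKM and MA 195, 544 and 217 FPKM. HX58 FA had 10.3, 11.8 and 8.78 FPKM, CA 896, 612 and 718 FPKM and MA 787, 439 and 1024 FPKM. FA was far below the other groups, CA overlapped MA, and FA over MA gave log2 fold changes of -5.06 (SE 0.47, adjusted p = 6.68e-05) in HX17 and -6.19 (SE 0.34, adjusted p = 3.09e-06) in HX58.

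Without acclimation the values of this locus lay closer to the control, which was itself lower than MA. HX58 MA had 439 to 1024 FPKM here. Over the 5 EXPA1 loci the log2 fold changes of MB over MA were -1.8 to -0.5 in HX17 and -3.1 to -1.3 in HX58, with 0 called. BnaC06g30760D had 26.9, 21.5 and 52.2 FPKM in HX17 FB, 473, 160 and 61.9 FPKM in CB and 119, 134 and 75.9 FPKM in MB. It had 55.4, 64.1 and 20.4 FPKM in HX58 FB, 128, 139 and 130 FPKM in CB and 86.9, 83.6 and 108 FPKM in MB. FB lay below MB in every library, with log2 fold changes of -1.68 in HX17 (adjusted p = 0.00373, up to 0.018 without FB replicate 1 or 2 or MB replicate 1 or 2) and -1.08 in HX58 (adjusted p = 0.0373, not called).

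Another EXPA1 locus was called lower in FB in both varieties. At BnaA02g14340D HX58 FB had 17.8, 18.6 and 3.99 FPKM, CB 33.4, 41.6 and 41.0 FPKM and MB 279, 267 and 226 FPKM. CB lay between FB and MB with no overlap, and the log2 fold changes over MB were -4.32 (SE 0.50, adjusted p = 0.000204) for FB and -2.74 (SE 0.25, adjusted p = 5.91e-05) for CB. This locus and BnaCnng71550D were lower than the control in FA and FB in both varieties, as were EXPA8 BnaC04g01470D and XTH6 BnaCnng13310D. Over the 4 freezing comparisons against controls, 10 of 123 tested members were called higher in all (8.13%, against 1.55% of all tested genes) and these 4 lower in all (3.25%, against 0.875%). The 10 were 5 loci of XTH22, 2 of XTH17, and 1 each of XTH18, XTH27 and EXLA2.

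By size of the fall shared by both varieties, XTH32 BnaC04g08400D came first in FA, at low levels, and 2 XTH6 loci in FB. XTH32 BnaC04g08400D had 0, 0 and 0.03 FPKM in HX17 FA against 1.96, 3.38 and 0.45 FPKM in MA, and 0.18, 0 and 0 FPKM in HX58 FA against 4.15, 0.97 and 3.31 FPKM in MA. The groups did not overlap. The HX17 call (adjusted p = 0.00196) ended without any FA replicate or MA replicate 1 or 2 (adjusted p of 0.00642 to 0.0116), and the HX58 call (adjusted p = 0.00384) without FA replicate 2 or 3 or MA replicate 1 or 3 (0.00731 to 0.0182). HX17 FA held 1 count, a ratio of 203 (95% counting interval 36.4 to 8014) of MA over FA. FB was not called in either variety.

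XTH6 BnaCnng13310D, the most abundant XTH, had 2.80, 2.25 and 3.85 FPKM in HX58 FA, 694, 706 and 725 FPKM in CA and 358, 92.3 and 341 FPKM in MA. CA was the highest group and FA the lowest, and FA over CA gave a log2 fold change of -8.02 (SE 0.21, adjusted p = 4.96e-08). The excess of CA over MA was not called (1.48, SE 0.40, adjusted p = 0.0266). In HX17 FA had 18, 18.8 and 30.3 FPKM, CA 181, 206 and 334 FPKM and MA 111, 421 and 185 FPKM, a fall of FA below MA of -3.30 on the log2 scale (adjusted p = 0.000766, and 0.00704 without FA replicate 1).

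In unacclimated leaves XTH6 BnaCnng13310D fell with chilling as well. HX58 FB had 4.32, 6.32 and 1.5 FPKM, CB 17.3, 24.8 and 22.9 FPKM and MB 149, 171 and 182 FPKM, so the 3 groups were separate. The log2 fold changes over MB were -5.45 (SE 0.48, adjusted p = 5.39e-05) for FB and -2.97 (SE 0.29, adjusted p = 8.53e-05) for CB. HX17 FB had 0, 0.03 and 1.17 FPKM and CB 14.8, 2.59 and 0.69 FPKM, against 257, 210 and 197 FPKM in MB. The FB call in HX17 (log2 fold change -9.18, adjusted p = 0.000158) stood with any library left out, whereas the CB call (-5.39, adjusted p = 0.00331) ended without CB replicate 2 or any MB replicate (adjusted p of 0.0094 to 0.015).

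EXPA10, known for leaf growth in Arabidopsis, was lower than MA in HX58 FA and higher than MB in HX58 FB, but these controls differed. Summed over its 2 loci, HX58 MA had 85.4 to 399 FPKM, MB 25.2 to 38.9 FPKM and FB 89.0 to 121 FPKM. Neither locus was called in MB against MA. Against chilling both loci were fitted lower in HX58, with log2 fold changes of -6.7 to -4.6 in FA (both called) and -1.6 to -1.2 in FB (1 called). BnaCnng40260D had 6.66, 6.24 and 7.47 FPKM in HX58 FA, 155, 146 and 143 FPKM in CA and 120, 21.7 and 128 FPKM in MA. FA was below every MA library (log2 fold change -3.73, adjusted p = 0.000909, and 0.00633 to 0.00711 without any FA replicate) and below CA by 4.56 on the log2 scale. The unacclimated HX58 leaves had 63.8, 55.7 and 39.8 FPKM in FB and 127, 138 and 121 FPKM in CB, against 13.4, 9.87 and 18.5 FPKM in MB. Both were above MB, CB by 3.15 (SE 0.34, adjusted p = 0.000128) and FB by 1.85 (SE 0.32, adjusted p = 0.00143, and 0.00514 to 0.00935 without FB replicate 1 or 2 or MB replicate 1). The HX17 values at CB were 523, 196 and 99.1 FPKM against 33.1, 45.4 and 19.8 FPKM in MB, which did not overlap but was not called (log2 fold change 2.83, adjusted p = 0.00704).

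Copies of EXPA8 moved apart. BnaC04g01470D had 36.1, 33.7 and 38.7 FPKM in HX58 FA and 490, 361 and 655 FPKM in MA (log2 fold change -3.80, SE 0.23, adjusted p = 4.76e-06), and 12.4, 23.6 and 9.45 FPKM in FB against 134, 105 and 206 FPKM in MB (-3.39, SE 0.43). BnaC04g47280D, chosen after its values were seen, had 84.8, 77.6 and 89.8 FPKM in HX58 FB and 69.8, 116 and 83.8 FPKM in CB, against 23.9, 31.5 and 18.4 FPKM in MB. The first locus was thus lower and the second higher than its control, by 1.77 (SE 0.21, adjusted p = 0.000203) in FB for the second.

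XTH33, known in Arabidopsis as an XTH held at the cell surface, was called lower than its control after direct freezing in HX17 only. BnaC08g14380D had 0.57, 0.59 and 0.86 FPKM in HX17 FB, 27.8, 10.1 and 7.10 FPKM in CB and 19.6, 16.5 and 15 FPKM in MB, while HX17 FA had 38.6, 36.3 and 22.0 FPKM against 11, 18.1 and 12.4 FPKM in MA. It was low in FB alone, with a log2 fold change of -4.62 (SE 0.27, adjusted p = 7.73e-06) over MB, and FA over MA was not called (1.34, adjusted p = 0.0114). FB was lower than CB by -4.20 in HX17 and -4.46 in HX58, calls that ended without any FB replicate in HX17 (adjusted p of 0.0141 to 0.0197) and without CB replicate 3 or FB replicate 2 in HX58 (0.0057 and 0.0113). The 3 XTH33 loci called in HX17 FB were all lower than in MB. In HX58 FB 0 of the 3 were called against MB, with log2 fold changes of -2.47 to -0.003. Summed XTH33 was 0.47 to 1.79 FPKM in HX58 FB and 2.56 to 7.47 FPKM in HX58 MB, against 35.2 to 43.4 FPKM in HX17 MB.

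Without freezing, changes were few in HX17 CA and more numerous in the other chilled groups. CA plants had 14 days and then 12 h at 4°, while MA had no acclimation in the treatment scheme. CA against MA thus takes in acclimation as well as the last 12 h. In HX17 CA against MA 0 of 92 tested members were called by edgeR, where 0.608% of all tested genes were called higher and 0.449% lower, although 27 had an unadjusted p under 0.05 and DESeq2 called 5. For the 27 and the 5 no share of all genes is given, so they cannot be set against all genes. Without CA replicate 3, edgeR called 1. In HX58 CA against MA 15 of 104 were called, all higher (2.60% of all tested genes were called higher and 2.77% lower), among them 13 XTHs, but the count was 5, 5, 4 and 5 without CA replicate 1, 2 or 3 or MA replicate 3 and 17 without MA replicate 2, and 4 calls stood with any library left out. These 4 were XTH22 BnaA02g35250D, XTH24 BnaC01g08130D, XTH27 BnaA06g34490D and EXLA2 BnaCnng78620D. XTH22 BnaA02g35250D had 7.03, 5.57 and 7.74 FPKM in HX58 CA against 0.16, 0.35 and 0.08 FPKM in MA (log2 fold change 5.08, SE 0.55, adjusted p = 0.000404).

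In CB against MB 27 of 96 members were called in HX17, 1 higher and 26 lower (5.98% and 8.19% of all tested genes), with a median log2 fold change over the tested members of -2.09 against 0.01 over all tested genes. Without MB replicate 1, 2 or 3 the count was 10, 16 and 12, and without CB replicate 1 it was 29. In HX58 19 of 94 were called, 7 higher and 12 lower (14.2% and 11.8% of all tested genes), so the share called higher lay below that over all genes. The calls in both varieties numbered 8, which is 29.6% of the HX17 and 42.1% of the HX58 calls (55.7% and 29.7% over all genes), 1 higher (XTH27 BnaAnng35740D) and 7 lower. The lower ones included EXPA12 BnaA03g33850D (log2 fold changes -4.50 and -3.61) and XTH31 BnaC03g55190D (-2.82 and -3.08), XTH31 being an XTH of the hydrolase type in Arabidopsis. The HX17 calls ended without MB replicate 1 or 3 for EXPA12 (adjusted p of 0.00647 and 0.00569), and without CB replicate 1 or any MB replicate for XTH31 (0.00545 to 0.0145), whose HX58 call ended without MB replicate 1 (0.00692). Transcripts of 59 loci for dividing cells, 6 of them at 0, summed to 370 to 566 FPKM in the CB and FB groups and 231 to 314 FPKM in the MB groups, and their part in these results was not tested.

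The change in CA over MA was also compared with that in CB over MB, called the acclimation difference below. The first spans 14 days and then 12 h at 4°, the second 12 h, and each has its own control. Acclimation, the last 12 h and the control cannot be told apart in this difference. In HX17 10 of 109 tested members were called, all with the higher value after acclimation (1.88% of all tested genes were called higher and 0.558% lower), and in HX58 10 of 114, again all higher (4.77% and 4.73% of all tested genes). EXLA2 BnaCnng78620D differed by 5.75 (SE 0.84, adjusted p = 0.00121) in HX17 and 4.43 (SE 0.52, adjusted p = 7.2e-05) in HX58 on the log2 scale, and XTH6 BnaA06g24680D by 7.53 (SE 1.1) and 5.05 (SE 0.65). Both stood with any library left out. Without the libraries that stood apart, the HX17 count was 9, 9 and 8 (CA replicate 3, MA replicate 2, CB replicate 1) and the HX58 count 11 (MA replicate 2). The HX17 count was 4, 3, 4 and 5 without MA replicate 1 or 3 or MB replicate 1 or 3, and the HX58 count 5, 6 and 6 without CA replicate 1 or 3 or MB replicate 3.

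The 2 control groups of HX17 were not alike for these genes. In MB against MA 6 of 101 tested members were called in HX17, all higher (0.864% of all tested genes were called higher and 0.239% lower), 3 of XTH22 and 3 of XTH18. XTH18 BnaC01g08120D had 11.2, 12.1 and 19.7 FPKM in MB against 0.05, 0.32 and 0.09 FPKM in MA (log2 fold change 6.33, SE 0.49, adjusted p = 0.000142). The count was 3 without MA replicate 3 or MB replicate 3, and 8 without MA replicate 2. In HX58 0 of 93 were called by edgeR in MB against MA (0.00563% of all tested genes were called higher and 0.00938% lower), with 44 at an unadjusted p under 0.05 and 22 called by DESeq2, and 11, all lower, without MA replicate 2. The shares of all genes beside the 44, the 22 and the 11 are not given.

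Between the varieties, HX58 MA and HX17 MA differed at 3 of 98 tested members (5.32% of all tested genes were called higher and 5.37% lower), the EXPA8 loci BnaC03g22750D and BnaA03g19130D being higher in HX58 (log2 fold changes 2.75 and 2.56) and BnaA04g23400D lower (-2.83). The call of BnaC03g22750D ended without replicate 1 or 3 of either group (adjusted p of 0.00608 to 0.0114), and the count was 4 without HX17 MA replicate 2 and 3 without HX58 MA replicate 2. HX58 MB and HX17 MB differed at 33 of 104, 5 higher and 28 lower in HX58 (8.63% and 10.1% of all tested genes), 22 of the lower ones being XTHs. XTH18 BnaC01g08120D had no count in HX58 MB against 1235 in HX17 MB, at least 485-fold lower. XTH9 BnaA03g25760D and EXPB3 BnaA03g58790D were higher in HX58 MB by 2.58 and 2.43 on the log2 scale. Both calls ended without HX17 MB replicate 3 or HX58 MB replicate 1 or 2, and also without HX17 MB replicate 2 for XTH9 and replicate 1 for EXPB3 (adjusted p of 0.0121 to 0.0207).

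The difference between the varieties in their response was tested as the change in HX58 less the change in HX17. For CA 0 of 115 tested members (0.114% of all tested genes were called higher in HX58 and 0.0550% lower) and for FA 0 of 124 (0.114% and 0.116%) were called by edgeR, with 33 and 25 at an unadjusted p under 0.05 and 5 and 3 called by DESeq2. Shares of all genes at an unadjusted p under 0.05 or under DESeq2 are not given. For CB 6 of 113 were called, all with the higher change in HX58 (1.41% of all tested genes were called higher and 0.510% lower), and for FB 10 of 119, again all higher (1.02% and 0.577%). XTH22 BnaA10g11500D differed by 6.67 (SE 0.79, adjusted p = 0.000384) and EXLA2 BnaCnng78620D by 4.78 (SE 0.49, adjusted p = 0.000149) for FB, both with any library left out. The FB levels were 150 to 266 FPKM in HX58 and 125 to 470 FPKM in HX17 for XTH22, and 32.7 to 63.8 and 16.4 to 22.3 FPKM for EXLA2, while HX17 MB (16.5 to 34.5 and 3.55 to 9.31 FPKM) lay above HX58 MB (0.04 to 0.30 and 0.46 to 0.52 FPKM). The CB count was 3 without HX58 MB replicate 2 and 9 without HX17 CB replicate 1, and the FB count was 5, 4, 4, 5 and 4 without HX17 MB replicate 1 or 3, HX58 FB replicate 2 or HX58 MB replicate 1 or 2.

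Some abundant members did not pass the test anywhere. Of the 226, 128 entered the test of some comparison, and 89 of those were called at least once over the 22. The share of all genes called over the 22 is not given, so the 89 cannot be set against it. EXPA6 BnaA04g16780D at 26.7 FPKM, XTH31 BnaA06g18630D at 12.9 FPKM and XTH9 BnaC09g00910D at 12.9 FPKM, chosen after their values were seen, were tested and never called. EXPB3 BnaC01g20780D was also never called, and EXLB1 BnaC07g34020D was lower in HX17 FB by -2.77 on the log2 scale (adjusted p = 0.0049, and 0.00711 to 0.0257 with any library but FB replicate 3 left out). Other EXPA6 loci were called higher than the control, 1 each in HX17 FA, HX58 FA and HX17 FB and 2 in HX58 FB. Summed EXPA6 was 215 to 321 FPKM in HX17 FA against 49.1 to 155 FPKM in MA, while HX58 FA (201 to 243 FPKM) overlapped MA (53.0 to 232 FPKM).

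Other wall genes were listed by their Swiss-Prot text and are given against the controls, where the shares of all tested genes called higher and lower were 5.26% and 2.63% in HX17 FA, 9.42% and 7.26% in HX58 FA, 12.8% and 13.3% in HX17 FB, and 16.1% and 13.6% in HX58 FB. Of 78 loci for xyloglucan synthesis and trimming, 5 of 47 tested were higher and 0 lower in HX17 FA, 7 of 51 higher and 2 lower in HX58 FA, 9 of 47 higher and 8 lower in HX17 FB, and 12 of 51 higher and 3 lower in HX58 FB. Of 40 cellulose synthase loci, 5 of 22 were higher and 0 lower in HX17 FA, 1 of 22 and 0 in HX58 FA, 2 of 23 and 4 in HX17 FB, and 1 of 25 and 2 in HX58 FB. Of 105 endoglucanase loci, 0 of 23 were higher and 1 lower in HX17 FA, 0 of 26 and 2 in HX58 FA, 0 of 26 and 4 in HX17 FB, and 1 of 28 and 2 in HX58 FB. These counts are small, and none of the lists was tested as a set.

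Of 85 fasciclin-like arabinogalactan loci, 2 of 32 were higher and 0 lower in HX17 FA, 1 of 32 and 5 in HX58 FA, 1 of 31 and 6 in HX17 FB, and 2 of 32 and 3 in HX58 FB. Of 644 loci matched by pectin-related text, which also takes in inhibitors of pectin enzymes, 14 of 175 were higher and 8 lower in HX17 FA, 15 of 192 and 28 in HX58 FA, 23 of 171 and 33 in HX17 FB, and 26 of 190 and 25 in HX58 FB. Of 55 plasma membrane proton pump loci, which acidify the wall, 0 were higher in any of these, and 0 of 16 were lower in HX17 FA, 1 of 19 in HX58 FA, 2 of 16 in HX17 FB and 4 of 20 in HX58 FB. Of 13 loci for BZR1 and BZR2, the transcription factors of brassinosteroid signalling, 6 of 12 were higher and 0 lower in FA in each variety, 1 of 12 higher and 1 lower in HX17 FB, and 0 of 11 in either direction in HX58 FB.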

How the data were processed

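Leaf RNA of the 36 samples was sequenced with paired 150-base reads (Illumina). The submitters' processing notes name HISAT2 2.0.4 and HTSeq 0.9.1. The reads were mapped to the Genoscope B. napus genome, of which the sources used here name no version, and coordinates are those of the deposited annotation. The authors deposited raw read counts per gene and FPKM, normalized for gene length and library total. They also deposited 24 group-mean count columns, and log2 fold changes with p-values for 12 comparisons, none of which was used. Both mates of some fragments were counted and near-identical copies can share reads, so counting intervals are too narrow and cover counting error only.

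Counts were tested with edgeR 4.0.16 (TMM, quasi-likelihood test, and filterByExpr at count 10 and total 15) over all genes of the groups compared, in 22 comparisons. P-values were adjusted over all genes tested (Benjamini-Hochberg), and a call needed a fold change of at least 2 and an adjusted p under 0.005, the authors' own limits. A fold against a group with 0 counts was bounded with 3 counts over the group, and with 1 to 3 counts the ratio has a 95% interval. FPKM served for levels. Depth was 32214015 to 59290772 counts per library. On simulated counts with 200 genes changed by 3 on the log2 scale, 191 and 179 were recovered. The tests simulated were HX58 CB against MB and the variety difference for CB. Changed genes had a mean CPM of at least 1, and the spread of each gene followed the trend over expression level. Recovery at loci near 0 counts, or with a larger spread of their own, was thus not covered.

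Named loci were, per treatment, the first 5 higher and lower calls shared by both varieties (mean CPM of at least 1, ranked by the smaller change), the first 2 in each direction per comparison or interaction, and the highest locus per class, with symbols given by counts. Members named as called in all freezing comparisons, neighbouring loci and the loci so marked were chosen after their values were seen. The members, lists and tests were chosen with earlier results of these data known. DESeq2 1.42.0, RLE normalization, no filter, a looser call (adjusted p below 0.05, any fold), a model of all 36 libraries, the other control group, a replicate block and leaving out each library were the alternatives. Same-numbered replicates did not deviate together (correlations of -0.341 to 0.185, none of 16 comparisons with all above 0.1). R 4.3.3, Python 3.11.15, pandas 2.3.3 and matplotlib 3.10.9 were used. No sequences are shown.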

Additional observations from a re-analysis of the deposited data

Results flagged for a closer look

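The following differences of a response between varieties or between acclimated and unacclimated leaves passed the test of the difference itself, on the log2 scale and with edgeR's quasi-likelihood test and Benjamini-Hochberg adjustment. XTH18 BnaC01g08120D differed between HX58 and HX17 by 18.17 for CB and by 14.50 for FB, and XTH18 BnaC07g42520D by 10.23 for CB and by 9.03 for FB. BnaC01g08120D had no count in HX58 MB and HX17 CB, 27 in HX58 CB and 1235 in HX17 MB, so its fitted values depend on the prior count and are no bounds. In HX17 the change in CA over MA, less that in CB over MB, was 14.65 for BnaC01g08120D and 9.15 for BnaC07g42520D. In HX58 it was 6.21 for XTH22 BnaA10g11500D and 5.69 for XTH17 BnaA01g06730D. Over the group, HX58 CB held 3 counts for BnaA10g11500D and 6 for BnaA01g06730D, and HX58 MB held 1 count for BnaC07g42520D. The fitted values that rest on these groups are likewise imprecise. The CB difference of BnaC07g42520D and all 4 of the acclimation differences lost their call without at least 1 of the libraries.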

How the results depend on the processing

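No named call reversed its direction under any alternative run, and RLE normalization moved no count of called members by over 1.5 times. Of 96 named calls, 71 stood with any library left out, 95 under DESeq2, 95 under RLE, 93 in the model of all 36 libraries and 85 with a replicate block, and 48 of 58 kept their call with the other control group. 

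DESeq2 called 5 members in HX17 CA against MA, 50 in HX17 FA, 42 in HX17 CB, 37 in HX17 FA against CA, 29 in HX17 FB against CB, 15 in HX17 MB against MA, 28 in HX58 CA, 34 in HX58 CB, 30 in HX58 FB against CB, 22 in HX58 MB against MA, 10 between varieties in MA, 5, 3, 15 and 19 in the variety differences for CA, FA, CB and FB, and 24 in each acclimation difference. At an adjusted p below 0.05 and any fold, in the same order, the counts were 6, 53, 56, 40, 25, 12, 33, 44, 29, 18, 13, 5, 5, 21, 19, 24 and 29, with 64 in HX58 FA and 70 in HX58 FA against CA. 

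The model of all 36 libraries gave 4 in HX17 CA, 26 in HX17 FB against CB, 5 in HX58 MB against MA, 8 between varieties in MA, 2 in the variety difference for CA and 16 in the HX17 acclimation difference. Without the filter on low counts there were 1 in HX17 CA, 49 in HX17 FA, 17 in HX17 FB against CB, 11 in HX17 MB against MA, 27 in HX58 CA, 9 in HX58 MB against MA, 8 between varieties in MA, 2, 2 and 12 in the variety differences for CA, FA and CB, and 19 in the HX58 acclimation difference. With the other control group there were 12 in HX17 CA, 3 in HX17 CB, 28 in HX17 FB and 51 in HX58 CA. The causes were not tested, and the shares of all genes called under these alternatives are not given. The counts under DESeq2, the looser call and these other settings thus cannot be set against all genes.

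The replicate numbers did not pair the samples. With a replicate block 1 member was called between varieties in MA and 5 in HX58 MB against MA, and no other count moved by over 1.5 times.

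When single libraries were left out, the counts ranged over 0 to 1 in HX17 CA, 21 to 35 in HX17 FA, 10 to 29 in HX17 CB, 28 to 45 in HX17 FB, 17 to 28 in HX17 FA against CA, 8 to 10 in HX17 FB against CB and 3 to 8 in HX17 MB against MA. In HX58 they ranged over 4 to 17 in CA, 26 to 45 in FA, 14 to 26 in CB, 28 to 54 in FB, 33 to 41 in FA against CA, 9 to 16 in FB against CB and 0 to 11 in MB against MA. They were 2 to 4 and 25 to 36 between varieties in MA and MB, 0 in every fit of the variety differences for CA and FA, 3 to 9 for CB and 4 to 11 for FB, and 3 to 10 and 5 to 12 in the acclimation differences of HX17 and HX58. Loci near 0 counts limit the precision of fold changes.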
